A study of Mus musculus with 36 samples.

Results

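The comparison described here sets 3 hearts in which an activated Akt1 transgene had been induced for 6 weeks and then repressed for 2 weeks against 3 hearts in which it had been induced for 6 weeks without repression. The hearts were chosen by their titles, and the RNA of each was read on a pair of Affymetrix chips (430A and 430B), so that 6 of the 18 hearts of the series and 12 of its 36 arrays enter it. All mice carried a tetracycline-responsive Akt1 gene with a myristoylation signal (Tet-myrAkt1) together with a tetracycline transactivator (tTA) driven by a myosin heavy chain (MHC) promoter, and all were labelled male. The hearts at 6 weeks on came from mice 18 weeks old and the hearts at 2 weeks off from mice 20 weeks old, so that repression and 2 weeks of age cannot be told apart. A group of 4 hearts taken before induction at 12 weeks of age serves as the reference level. The promoter of the alpha form of myosin heavy chain, which the transgene design points to although the label has lost that letter, is active in cardiac muscle cells, so the transgene drives Akt1 in that cell type while the arrays measured whole heart tissue. Separate hearts were named as replicates. Each p-value of the linear model sets a difference between groups against the spread between hearts within groups. That spread was pooled over all 18 hearts of the series, not over the 6 compared hearts alone.

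Akt1 is a protein kinase that insulin and growth factor receptors activate through PI3-kinase and that is recruited to the cell membrane, a step that the myristoylation signal bypasses. Active Akt promotes protein synthesis and cell growth and keeps FoxO transcription factors, which drive genes of muscle atrophy, autophagy and insulin receptor signalling, out of the nucleus. In the heart, sustained Akt activity enlarges cardiac muscle cells, and turning it off allows growth to regress.

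Arrays were scaled to a common mean, and signals below are the deposited linear values. Each change is a log2 difference, 2 weeks off minus 6 weeks on, with the standard error (SE) of the model. A probe set was called when its p-value, adjusted over all probe sets of its chip, was below 0.05, and each gene was represented by its brightest probe set on chip 430A, or on chip 430B where chip 430A had none, unless stated. Of the 140 named genes 86 had several kept probe sets. All of them were called in 1 direction for 13 genes, some were called and others not for 67, calls went both ways for 3 and none was called for 3, so that a call or its absence in 1 probe set does not speak for every transcript of the gene. Heart 3 at 6 weeks on stood apart in RNA quality. Its ratio of signal at the 3′ end to the 5′ end of Actb was 3.71 on chip 430A and 4.20 on chip 430B, against 0.952 to 1.92 and 0.969 to 1.88 in the 17 other hearts. Its Gapdh ratio on chip 430A was 1.54 against 0.765 to 1.11. The 3 hearts at 2 weeks off had Actb ratios of 1.22, 1.12 and 0.952, all below the 1.36, 1.24 and 3.71 at 6 weeks on (exact permutation test, two-sided p = 0.1, the smallest that 3 against 3 can give). RNA quality moved with the comparison, its part in the results was not tested, and calls and list counts that changed on its removal are marked below. Of the probe sets called higher at 2 weeks off on chip 430A, heart 3 was the lowest of its group in 68.7%, against 40.5% of all kept probe sets.

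**Figure D1:**
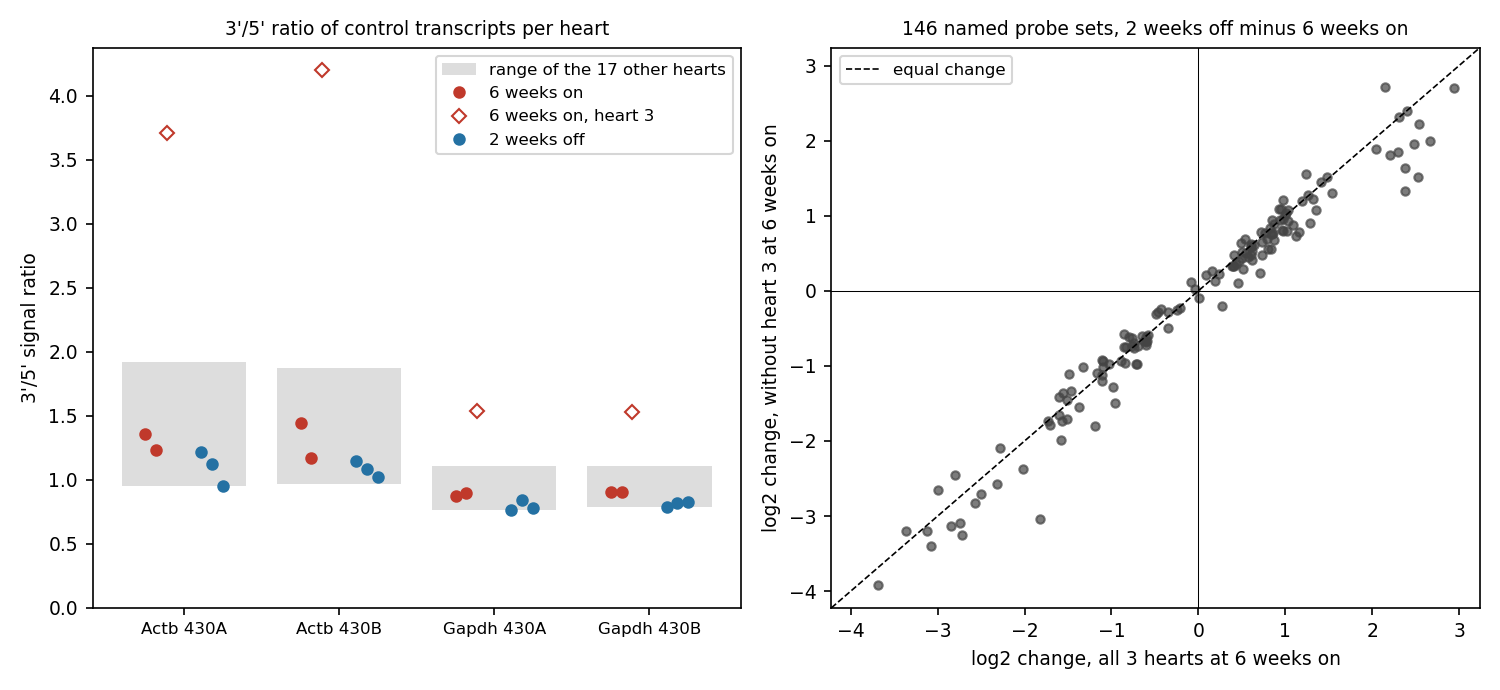
The left panel plots the ratio of 3′ to 5′ signal of Actb and Gapdh for each heart at 6 weeks on and 2 weeks off, with the range of the 17 other hearts in grey, and heart 3 at 6 weeks on lies above the grey range in all 4 columns. The right panel plots the log2 change of the 146 named probe sets with all hearts against the change without that heart, and the dashed line marks equal change.

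Repression was accompanied by calls for 2972 of 15565 probe sets of chip 430A (19.1%), of which 1768 were above the level at 6 weeks on (11.4%) and 1204 below it (7.74%). For chip 430B the calls numbered 633 of 17519 (3.61%), with 377 above (2.15%) and 256 below (1.46%). Taken by gene, 1864 of 14650 were called (12.7%), 1054 higher (7.19%) and 810 lower (5.53%), and these shares are the background for every gene list below. Without heart 3 the calls were 1809 on chip 430A (11.6%, with 6.75% higher and 4.88% lower), 412 on chip 430B (2.35%, with 1.49% and 0.862%) and 1174 genes (8.01%, with 4.38% and 3.63%). The 3 hearts at 2 weeks off lay all above or all below the 3 at 6 weeks on in 19.1% and 13.6% of the probe sets of chip 430A, in 8.95% and 9.42% of those of chip 430B and in 15% and 12.5% of genes, the background for each remark below that groups did not overlap. The direction of small changes on chip 430A depended on the scaling: 59.5% of calls were higher as deposited and 39.9% (1086 higher, 1634 lower) with the arrays scaled to a common median, a step that moved the median of all probe sets from 0.06 to -0.06.

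Akt1 RNA fell in the probe set that was highest at 6 weeks on. This brightest Akt1 probe set read 2931, 2312 and 1851 in the 3 hearts at 6 weeks on and 790, 633 and 837 at 2 weeks off, with 548 ± 69.7 (SD, n = 4) before induction. All hearts at 2 weeks off lay below all hearts at 6 weeks on, a change of -1.57 ± 0.19 (adjusted p = 3.2e-05). The level at 2 weeks off was 0.42 above that before induction, a difference that was not called (adjusted p = 0.19). Of the other Akt1 probe sets, the one on chip 430A went from 537, 726 and 860 to 1025, 859 and 1129 (0.49, adjusted p = 0.053). Without heart 3 this probe set was called higher (0.63, adjusted p = 0.027), the opposite direction to the brightest one. The probe set on chip 430B had a difference of -0.24 (adjusted p = 0.70). The files do not say which Akt1 probe sets can bind the transgene RNA.

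Among genes of insulin and PI3-kinase signalling, 3 of 17 measured genes rose and 3 fell. Irs1, the adaptor that links the insulin receptor to PI3-kinase, read 304, 418 and 391 at 6 weeks on and 1068, 1207 and 1085 at 2 weeks off. The groups were well apart, with a rise of 1.48 ± 0.15 (adjusted p = 9.3e-06), and the level after repression was 0.06 below that before induction. Tsc2, a brake on the growth kinase mTOR, went from 822, 955 and 377 to 1580, 1885 and 1671 (1.29 ± 0.22, adjusted p = 0.00076), and 0.91 without heart 3, its lowest value. Akt2, the isoform that carries most of insulin's effect on glucose uptake, rose by 0.61 (adjusted p = 0.0036). Beside Akt1 the genes that fell were Pik3r1, a regulatory subunit of PI3-kinase (-1.43, adjusted p = 0.0037), and Gsk3b, a kinase that Akt inhibits (-0.72, adjusted p = 0.046, and an adjusted p of 0.08 without heart 3). A Pik3r1 probe set on chip 430B was also called lower (-0.68, adjusted p = 0.030). Dimmer ones on chip 430A were not called (0.86, adjusted p = 0.053, with no overlap, and -0.80, adjusted p = 0.22). Foxo3 had a difference of -1.20 (adjusted p = 0.051) and Foxo1 of 0.00.

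The list of FoxO and atrophy targets split evenly, with 4 of 20 genes higher and 4 lower and a median change of 0.12 against 0.03 for all genes. Trim63, the muscle ubiquitin ligase MuRF1, read 1360, 1247 and 1338 at 6 weeks on and 4048, 2385 and 3289 at 2 weeks off (1.26 ± 0.18, adjusted p = 0.00042). All hearts at 2 weeks off lay above all hearts at 6 weeks on, and the mean of 3240 stood beside 2208 ± 220 (SD, n = 4) before induction. Rbl2, a pocket protein that restrains the cell cycle, rose by 0.98 (adjusted p = 0.00046), Gabarapl1, which acts in autophagosome formation, by 0.91 (adjusted p = 0.0017), and Gadd45a, a stress sensor, by 1.04 (adjusted p = 0.0045). Fbxo32, the other atrophy ligase, read 946, 843 and 756 and then 785, 1410 and 1511, overlapping groups with a difference of 0.47 (adjusted p = 0.21). Its other probe sets were called higher with no overlap, on chip 430A from 529, 451 and 184 to 835, 838 and 870 (1.14, adjusted p = 0.0036) and on chip 430B by 0.99 (adjusted p = 0.024, lost without heart 3). Klf15 was also not called (0.45, adjusted p = 0.25).

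The 4 lower members were Tsc22d3 (-1.51, adjusted p = 0.00062), a glucocorticoid-induced regulator, Cat (-1.10, adjusted p = 0.00076) and Sod2 (-0.52, adjusted p = 0.015), which detoxify hydrogen peroxide and superoxide, and Txnip (-0.80, adjusted p = 0.04), an inhibitor of thioredoxin. Cat read 3480, 3751 and 5069 and then 2082, 1921 and 1619, with no overlap, while its dimmer probe set had a difference of 0.27 (adjusted p = 0.44). Without heart 3 Sod2 lost its call (adjusted p = 0.081). 

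The core FoxO motif GTAAACA, sought on both strands of the 250 bases before each gene's start, occurred in 2 of the 19 list members with a promoter sequence, against 3.17% of all 32851 promoters of that length in the RefSeq table. The pair moved in opposite directions, Trim63 up and Txnip down, which is why both promoters are shown. They lie at chr4:134314870-134315119 and chr3:96557707-96557956, on the plus strand of GRCm38.p6 as given by RefSeq, and capitals mark the motif or its reverse complement. A match describes the letters and is no evidence of binding.

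Trim63: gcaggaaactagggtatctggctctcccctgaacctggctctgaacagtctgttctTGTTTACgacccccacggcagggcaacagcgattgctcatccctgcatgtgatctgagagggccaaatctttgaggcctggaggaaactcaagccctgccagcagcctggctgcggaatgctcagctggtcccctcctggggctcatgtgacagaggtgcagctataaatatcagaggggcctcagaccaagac
Txnip: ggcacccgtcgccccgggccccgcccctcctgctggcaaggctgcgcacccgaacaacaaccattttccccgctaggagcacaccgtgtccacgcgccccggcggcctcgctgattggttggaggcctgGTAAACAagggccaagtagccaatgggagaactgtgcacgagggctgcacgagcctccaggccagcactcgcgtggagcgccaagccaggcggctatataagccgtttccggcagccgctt

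Of 19 autophagy and lysosome genes 4 rose and 1 fell. Sqstm1, the cargo receptor p62, read 6664, 6064 and 3757 at 6 weeks on and 8436, 7949 and 10403 after repression (0.73 ± 0.16, adjusted p = 0.0043). The lysosomal protease Ctsl rose by 0.83 (adjusted p = 0.0041), the proton pump subunit Atp6v1a by 0.61 (adjusted p = 0.0055) and Gabarap by 0.40 (adjusted p = 0.029). Atg5, part of the conjugation machinery, fell by 0.77 (adjusted p = 0.01), a call lost without heart 3, as was that of Gabarap. With the Actb ratio as a covariate none of the 5 calls was made. Of 16 proteasome and ubiquitin genes 5 fell and 1 rose. Psmb3 read 3638, 4093 and 7342 and then 2062, 1726 and 1857 (-1.33 ± 0.21, adjusted p = 0.00043), with heart 3 the highest. Psma6 (-0.85, adjusted p = 0.0021) and Psmc4 (-0.61, adjusted p = 0.0041), further subunits, were also lower, while Ube2b, a ubiquitin-conjugating enzyme, was 0.55 higher (adjusted p = 0.0017). Heart 3 was also the highest for Psma6, at 8880 beside 4729 and 5262. Other probe sets of Psma6 (-0.64, adjusted p = 0.023) and Psmc4 (-1.61, adjusted p = 0.021, lost without heart 3) were called lower. Further ones of Psma6 (0.11, adjusted p = 0.57) and Psmb3 (-0.30, adjusted p = 0.18) overlapped and were not called. Without heart 3 the counts of the list were 3 lower and 1 higher.

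**Figure D2:**
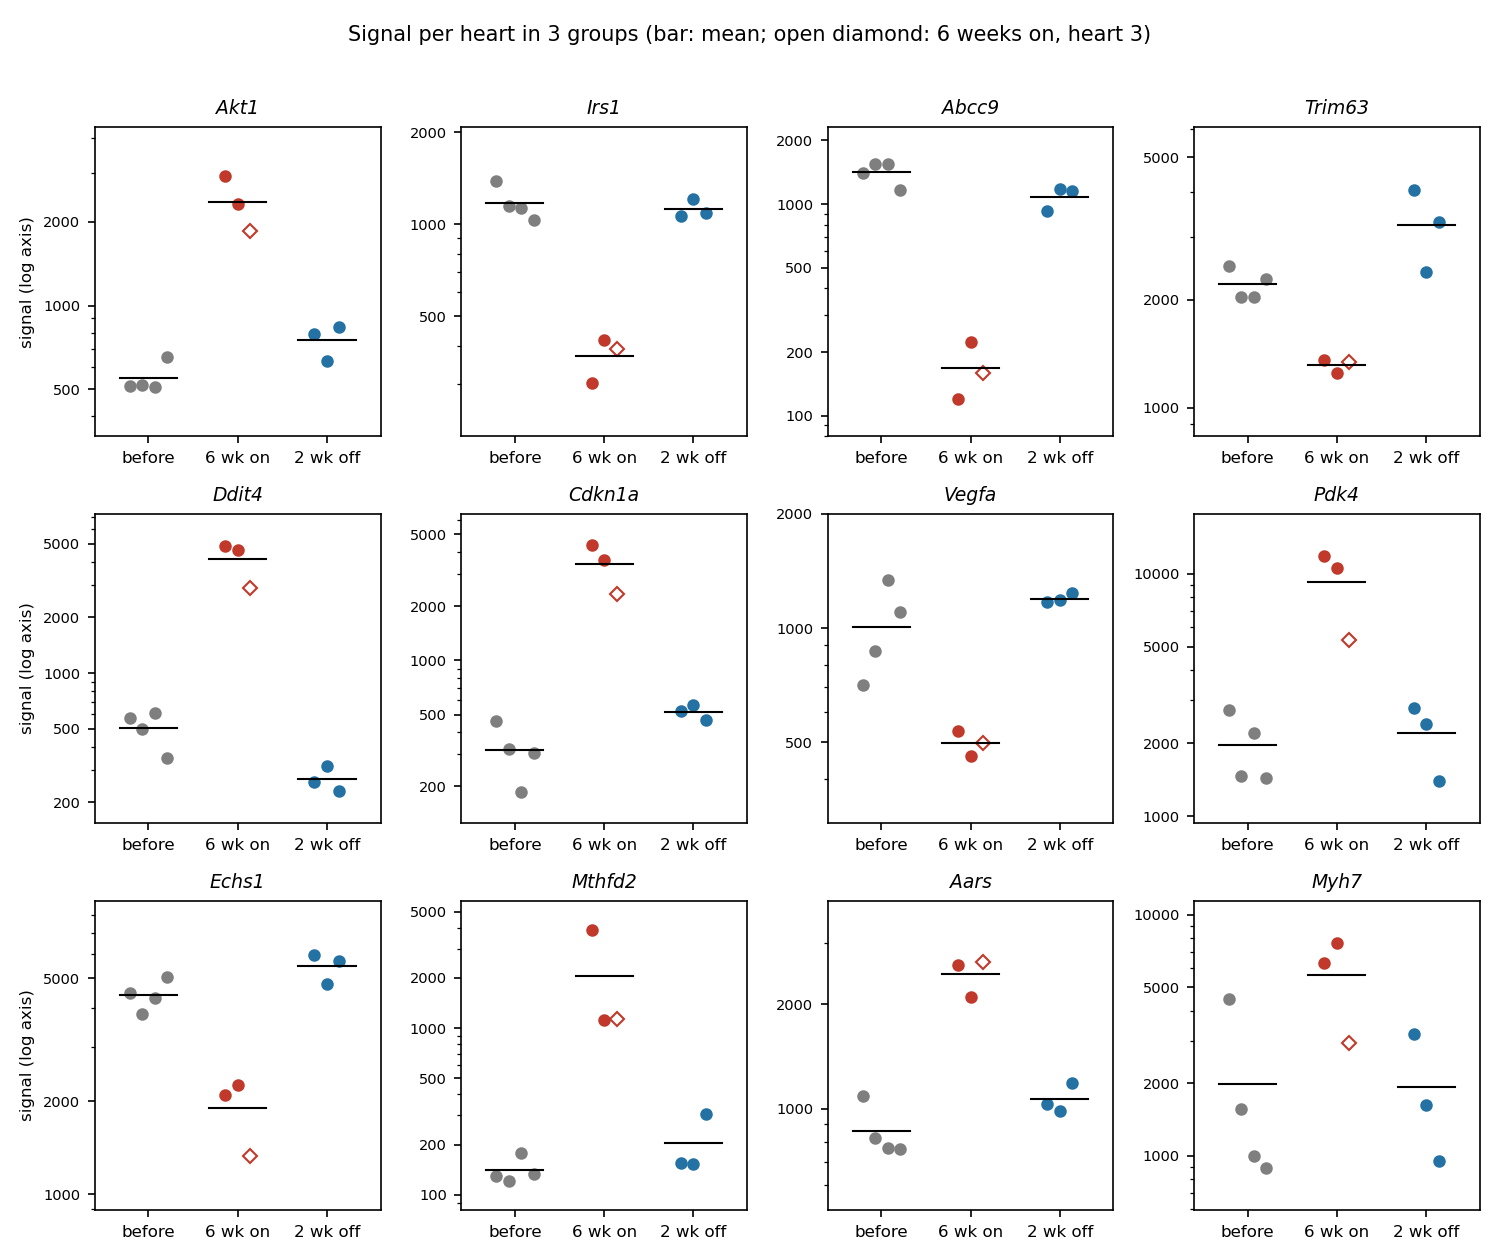
Each panel plots the signal of 1 gene per heart on a log axis before induction, at 6 weeks on and at 2 weeks off, with a bar at the mean and an open diamond for heart 3 at 6 weeks on. Groups at 6 weeks on and 2 weeks off do not overlap in any panel except Myh7.

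Genes of growth arrest and stress were among the largest falls of the comparison, with 4 of 9 measured genes lower and none higher. Ddit4, an inhibitor of mTOR complex signalling that is induced by stress and glucocorticoids, read 4856, 4636 and 2883 at 6 weeks on and 259, 314 and 231 at 2 weeks off. All 3 repressed hearts were far below, a change of -3.69 ± 0.25 (adjusted p = 5.6e-08), beside a mean of 507 ± 115 (SD, n = 4) before induction. Cdkn1a, the cell cycle inhibitor p21, read 4341, 3588 and 2320 and then 522, 562 and 465 (-2.57 ± 0.23, adjusted p = 3.1e-06), and its dimmer probe set changed by -2.74 (adjusted p = 2e-05). Gadd45g, a growth arrest gene, went from 1341, 685 and 614 to 116, 87.2 and 114 (-2.50 ± 0.26, adjusted p = 1.1e-05), and Gadd45b fell by 0.85 (adjusted p = 0.019). The first 3 of these calls held when any of the 6 hearts was left out. Atf3 had a difference of -0.69 (adjusted p = 0.28).

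The aminoacyl-tRNA synthetases, the enzymes that charge tRNAs with amino acids, were lower as a group, 10 of 17 measured genes against 1 higher and a median change of -0.53. Aars, the alanine enzyme, read 2604, 2098 and 2657 at 6 weeks on and 1027, 984 and 1189 at 2 weeks off, with 861 ± 155 (SD, n = 4) before induction. The groups were apart by -1.16 ± 0.17 (adjusted p = 0.00025), and heart 3 lay close to heart 1. Nars (-0.89, adjusted p = 0.00076), Lars (-0.74, adjusted p = 0.00098), Wars (-0.70, adjusted p = 0.00085), Eprs (-0.83, adjusted p = 0.0012) and Mars1 (-1.10, adjusted p = 0.0045) also fell, and Kars, which was called 0.48 higher (adjusted p = 0.033), lost its call without heart 3. Between 8 and 10 genes were called lower when each of the 6 hearts was left out in turn, and 10 under both the median scaling and quantile normalization. The count was 4 with only the 6 arrays of this comparison in the model and 7 with the Actb ratio as a covariate.

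Of the 15 genes of the serine, folate and ATF4 pathway, 3 fell and none rose, and 14 had changes below 0. Mthfd2, a mitochondrial folate enzyme, read 3876, 1120 and 1139 and then 155, 153 and 306 (-2.84 ± 0.34, adjusted p = 3.3e-05), with heart 1 at 6 weeks on the highest. The transcription factor Atf5 fell from 2235, 1458 and 1726 to 1087, 1003 and 1046 (-0.74 ± 0.15, adjusted p = 0.0022). Shmt2 fell by 0.46 (adjusted p = 0.043), a call lost without heart 3 (adjusted p = 0.23). Atf4 itself had a difference of -0.35 (adjusted p = 0.20), with a dimmer probe set called lower (-1.07, adjusted p = 0.012, lost without heart 3), and Asns, asparagine synthetase, by -0.58 (adjusted p = 0.12).

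**Figure D3:**
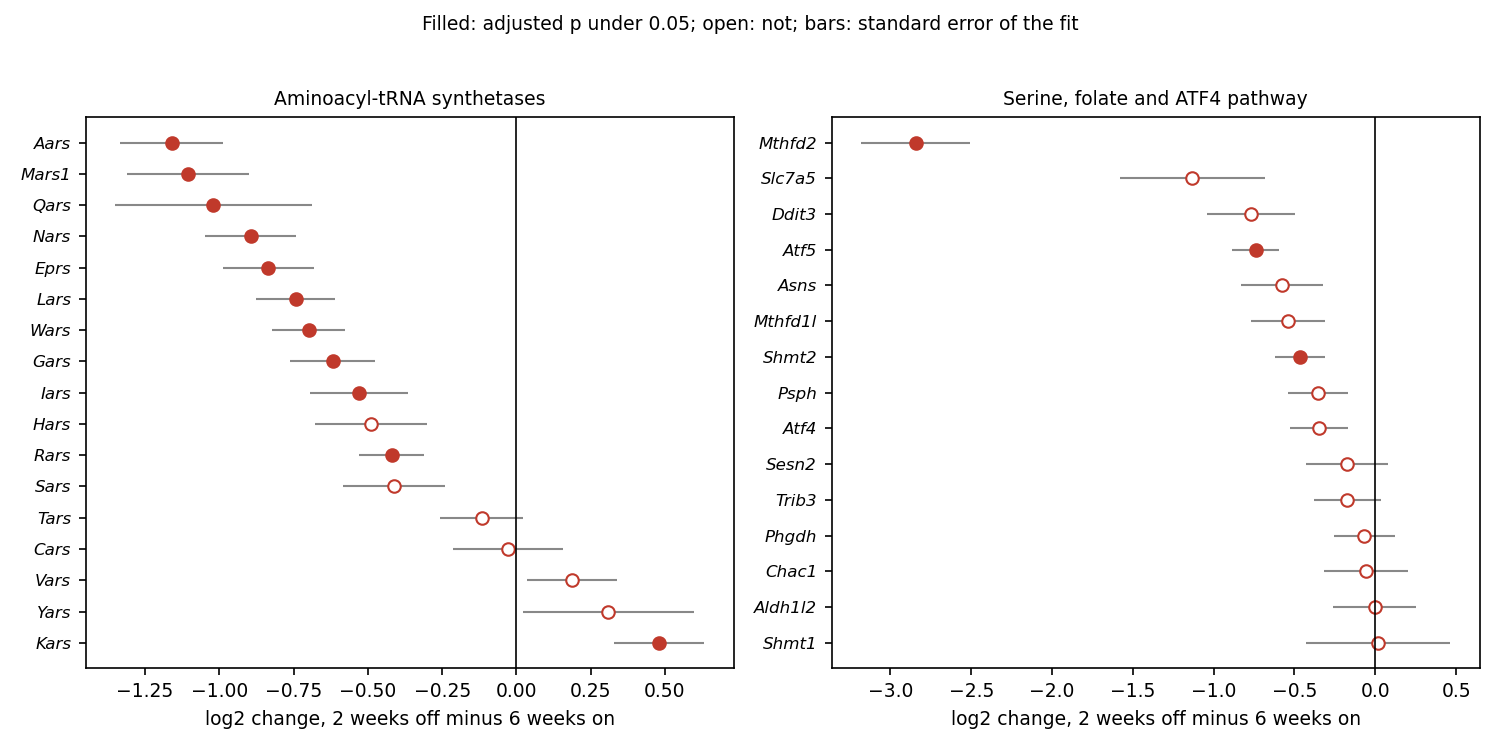
The log2 change of each measured gene, 2 weeks off minus 6 weeks on, is plotted with the standard error of the model for the aminoacyl-tRNA synthetases (left) and the serine, folate and ATF4 pathway (right). Filled points are called, and 10 of 17 synthetases lie below 0 with a call.

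The amino acid response element, through which ATF4 acts, was sought as TGATGNAA on both strands of the same 250 bases, a search chosen after these values were seen. It occurred in 3 of the 10 synthetases with a promoter sequence and in 2 of 13 genes of the serine, folate and ATF4 list, against 3.45% of all promoters. Of the 6 synthetases that fell and had a promoter sequence, Aars and Gars (-0.62, adjusted p = 0.0058) held it, and they are shown with the match in capitals. The third was Tars (-0.12, adjusted p = 0.61). The promoters lie at chr8:111033592-111033841 and chr6:55037751-55038000 on the plus strand of GRCm38.p6 in RefSeq.

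Aars: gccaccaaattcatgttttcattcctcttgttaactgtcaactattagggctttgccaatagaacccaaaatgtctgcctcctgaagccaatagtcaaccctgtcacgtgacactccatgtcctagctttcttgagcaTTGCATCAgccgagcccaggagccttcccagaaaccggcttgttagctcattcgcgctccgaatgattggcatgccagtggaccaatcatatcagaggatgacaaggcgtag
Gars: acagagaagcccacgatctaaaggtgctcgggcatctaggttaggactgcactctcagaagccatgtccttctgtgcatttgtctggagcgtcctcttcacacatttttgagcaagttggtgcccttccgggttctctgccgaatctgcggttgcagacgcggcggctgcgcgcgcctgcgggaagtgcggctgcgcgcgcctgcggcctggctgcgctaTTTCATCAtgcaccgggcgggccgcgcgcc

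Of 12 genes of the hypertrophy and fetal program 3 fell and none rose. Myh7, the fetal myosin heavy chain, read 6316, 7637 and 2951 at 6 weeks on and 3195, 1625 and 956 at 2 weeks off, groups that overlapped through heart 3 (-1.58 ± 0.52, adjusted p = 0.04). Fhl1, a stretch-responsive sarcomere protein, fell by 0.71 (adjusted p = 0.012) and Xirp1, an actin-binding protein of intercalated discs, by 0.58 (adjusted p = 0.024, and 0.053 without heart 3). The natriuretic peptide genes were not called: Nppa read 11964, 12953 and 4572 and then 17964, 10656 and 6579 (0.27 ± 0.78, adjusted p = 0.85). Nppb had a difference of 0.71 (adjusted p = 0.28) and Acta1, skeletal actin, of -0.22 (adjusted p = 0.67). The Myh7 call was lost when heart 1 or 2 at 6 weeks on or heart 2 or 3 at 2 weeks off was left out, and the list's count of falls ranged from 0 to 3.

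Among 18 genes of the adult sarcomere only Myom2 was called. This M-band protein read 955, 1095 and 714 at 6 weeks on and 5315, 3923 and 2875 at 2 weeks off, all above, a rise of 2.05 ± 0.37 (adjusted p = 0.0011) to the range of the hearts before induction (4649 ± 1497, SD, n = 4). Myh6, the adult myosin, had a difference of -0.09 (adjusted p = 0.82). Of 12 calcium handling genes 3 rose, namely the release channel Ryr2 (0.57, adjusted p = 0.012), the calcium channel subunit Cacna1c (0.61, adjusted p = 0.024) and the pump inhibitor Pln (0.41, adjusted p = 0.043). A second Pln probe set rose by 1.64 (adjusted p = 0.00031), and a Cacna1c probe set on chip 430B was not called (0.22, adjusted p = 0.71). In the brightest probe sets none of the 3 was called with the arrays scaled to a common median, and without heart 3 only Pln was. Over the 6 refits without 1 heart the call was lost in 4 for Pln, 4 for Cacna1c and 1 for Ryr2. Atp2a2, the calcium pump, had a difference of -0.04 in its brightest probe set (adjusted p = 0.91), and 4 further probe sets were not called. Another, dimmer than the brightest but well above the filter, went from 729, 454 and 402 to 1610, 1469 and 1494, with no overlap (1.49, adjusted p = 3.6e-05). Trdn, also in this list, had a probe set called lower with no overlap (-2.26, adjusted p = 0.0046, and 0.025 without heart 3). It read 3758, 3018 and 5317 and then 594, 710 and 1122, and the other Trdn probe sets were not called with all hearts.

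Of 15 genes of ion channels and junctions 3 rose. Abcc9, the sulfonylurea receptor of cardiac and vascular ATP-sensitive potassium channels, read 120, 222 and 160 at 6 weeks on and 924, 1178 and 1148 at 2 weeks off, against 1414 ± 181 (SD, n = 4) before induction. This was the rise with the smallest adjusted p among the named genes (2.40 ± 0.18, adjusted p = 2.6e-07), and its 2 probe sets on chip 430B rose by 1.25 and 0.82. Its channel partner Kcnj8, counted with the pericyte markers, rose by 0.72 (adjusted p = 0.0025). The other partner, Kcnj11, was called higher only in a dim probe set, from 51.0, 42.7 and 65.7 to 83.3, 156 and 182 (0.85, adjusted p = 0.018), a call lost in 3 of the 6 refits without 1 heart. Its brighter probe set on chip 430B had a difference of -0.03 (adjusted p = 0.98). Gja1, the gap junction protein connexin 43, read 2846, 2967 and 3100 and then 6273, 5629 and 4582 (0.87 ± 0.17, adjusted p = 0.002), and 4 of its 6 probe sets were called higher. Kcnip2, a potassium channel subunit, was not called (0.24, adjusted p = 0.58). On chip 430B it read 31.7, 40.8 and 23.5 and then 506, 659 and 66.5, with no overlap and no call (2.79, adjusted p = 0.051).

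Energy metabolism moved in both directions. The list for fatty acid entry and breakdown had 5 rises and 5 falls among 25 genes. Echs1, an enzyme of beta-oxidation, read 2101, 2265 and 1334 at 6 weeks on and 5941, 4799 and 5703 at 2 weeks off (1.53 ± 0.19, adjusted p = 3.6e-05). The fatty acid transporter Slc27a1 went from 226, 233 and 242 to 539, 427 and 590 (0.99 ± 0.16, adjusted p = 0.00053). Its brighter probe set on chip 430B overlapped and was not called (0.25, adjusted p = 0.62). In the other direction Pdk4, the kinase that shuts pyruvate out of the mitochondrial oxidation pathway, read 11770, 10556 and 5324 and then 2796, 2404 and 1402 (-2.02 ± 0.31, adjusted p = 0.00036). The acylcarnitine carrier Slc25a20 (-1.49, adjusted p = 0.00076), malonyl-CoA decarboxylase Mlycd (-0.86, adjusted p = 0.00093) and the uncoupling protein Ucp3 (-0.81, adjusted p = 0.018) fell as well. The counts were 3 higher and 4 lower without heart 3, 2 and 5 with median scaling and 8 and 4 with quantile normalization.

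Of 14 transcriptional regulators of mitochondrial genes 3 rose and 3 fell. Ppargc1a, the coactivator PGC-1 alpha, read 534, 418 and 375 and then 966, 805 and 756 (0.86 ± 0.20, adjusted p = 0.005), and Rxra, the partner of PPAR receptors, rose by 0.77 (adjusted p = 0.0044). Perm1, a muscle target of PGC-1 alpha, rose by 0.84 (adjusted p = 0.024) and lost its call without heart 3. The nuclear receptor Esrra fell, from 1353, 1112 and 1843 to 843, 774 and 747 (-0.80 ± 0.19, adjusted p = 0.006), as did Nrip1 (-0.77) and Ppargc1b (-0.62), whose calls were lost without heart 3. A dim Nrip1 probe set on chip 430B was called in the other direction (1.75, adjusted p = 0.016), also lost without heart 3. The receptor motif AAGGTCA, bound by Esrra, occurred in the 250 bases before the start of 0 of 14 genes of the tricarboxylic acid cycle and 2 of 41 of oxidative phosphorylation, against 4.08% of all promoters.

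All 5 called genes of the tricarboxylic acid cycle, of 15 measured, rose. Dld, a subunit shared by the 2-oxoacid dehydrogenases, read 1329, 1146 and 782 and then 2348, 2195 and 2384 (1.09 ± 0.25, adjusted p = 0.0057). Idh2 went from 7519, 5619 and 6788 to 10681, 11218 and 8545 (0.61, adjusted p = 0.012), and Sucla2 (0.50, adjusted p = 0.0062), Ogdh (0.50, adjusted p = 0.02) and Dlst (0.48, adjusted p = 0.024) were higher. The count was 3 without heart 3, when Ogdh and Dlst lost their calls, 1 with median scaling and 7 with quantile normalization. Of 53 genes of oxidative phosphorylation 6 rose and 5 fell, led by the complex I subunit Ndufs1 (0.87 ± 0.14, adjusted p = 0.0006) and the complex II subunit Sdha (0.60 ± 0.12, adjusted p = 0.0021). Only these 2 were called without heart 3. Scaling moved this list's split to 2 higher and 5 lower (median) or 14 higher and 5 lower (quantile).

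Of 18 genes of glucose use 2 rose and 1 fell. Slc2a4, the insulin-responsive glucose transporter GLUT4, read 2130, 1776 and 2014 at 6 weeks on and 3377, 3235 and 4008 at 2 weeks off (0.82 ± 0.13, adjusted p = 0.00037), and a second probe set rose by 2.20. Phosphofructokinase subunits went apart, the muscle form Pfkm higher (0.43, adjusted p = 0.028, lost without heart 3) and the platelet form Pfkp lower (-0.72, adjusted p = 0.011). Slc2a1, the basal transporter, had a difference of 0.15 (adjusted p = 0.60), and a dimmer probe set was called higher with no overlap (0.81, adjusted p = 0.018, lost without heart 3). Of 9 creatine and adenylate kinase genes 2 fell. Ak4, a mitochondrial adenylate kinase, went from 1005, 1232 and 1343 to 554, 547 and 484 (-1.10 ± 0.17, adjusted p = 0.00035), and the fetal creatine kinase Ckb fell by 0.60 (adjusted p = 0.021).

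**Figure D4:**
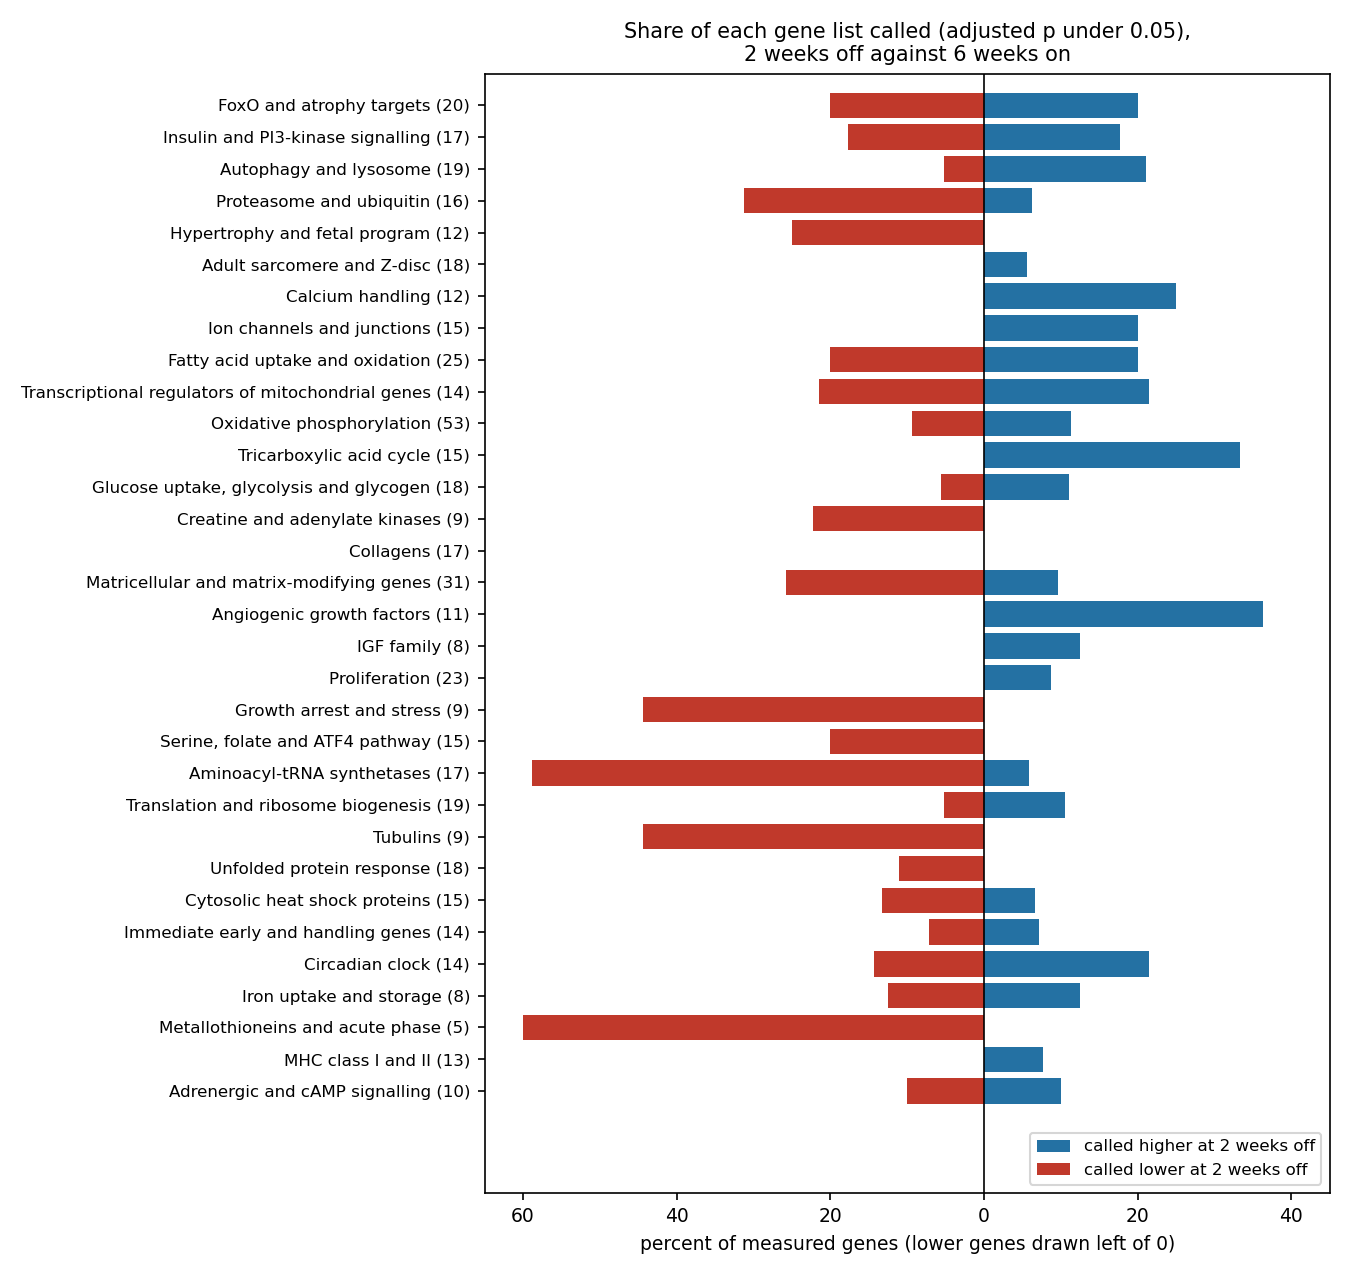
For each pathway list, with the number of measured genes in brackets, bars show the percentage called higher (right) and lower (left) at 2 weeks off. Over all genes tested 7.19% were called higher and 5.53% lower, and the synthetases have 10 of 17 genes lower while the collagens have no call.

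Angiogenic growth factors rose, 4 of 11 measured and none lower, with a median of 0.79. Vegfa, the main endothelial growth factor, read 535, 459 and 498 at 6 weeks on and 1169, 1184 and 1235 at 2 weeks off. The groups were narrow and far apart (1.19 ± 0.17, adjusted p = 0.00023), and its second probe set was not called (0.65, adjusted p = 0.12). Vegfb (0.79 ± 0.13, adjusted p = 0.0006), Pdgfb, which recruits pericytes (1.01 ± 0.17, adjusted p = 0.00073), and Apln, a peptide of endothelial cells (0.95 ± 0.18, adjusted p = 0.0014), rose too. Without heart 3 the count was 6, with Vegfc and the apelin receptor Aplnr added. In each refit without 1 heart and under both scalings, at least 4 were called higher and none lower.

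Endothelial markers rose in 7 of 20 and fell in 1. Emcn, a sialomucin of capillary and venous endothelium, read 520, 603 and 443 and then 1201, 1142 and 996 (1.03 ± 0.13, adjusted p = 4.6e-05), and Pecam1, the junction protein CD31, went from 541, 696 and 247 to 1070, 1000 and 1101 (1.12 ± 0.24, adjusted p = 0.003). The VEGF receptor Kdr rose by 0.83 (adjusted p = 0.016), Erg by 0.84 (adjusted p = 0.012, and 0.051 without heart 3) and Cav1 by 0.65 (adjusted p = 0.028), while Sox17 fell by 0.98 (adjusted p = 0.015). In bulk tissue, fewer cells of a type and less RNA per cell cannot be told apart. The summed signal of the 19 markers on chip 430A was 22094 to 30244 at 6 weeks on, 28580 to 35697 at 2 weeks off and 30848 to 36484 before induction, so that the summed levels of the 2 groups overlapped. The count was 5 higher and 1 lower without heart 3 and 3 and 2 with median scaling.

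By their brightest probe sets none of 17 collagens was called by limma, with 0 at an unadjusted p below 0.05, and 1 was called lower without heart 1 at 6 weeks on. Col1a1 read 1981, 3455 and 2295 and then 3674, 3048 and 2127 (0.20 ± 0.27, adjusted p = 0.67), and Col3a1 had a difference of 0.09 (adjusted p = 0.76). A dimmer Col3a1 probe set was called higher with no overlap (1.26, adjusted p = 0.00025, and 0.0011 without heart 3). Of 31 matricellular and matrix-modifying genes 8 fell and 3 rose. Tgfb2, a growth factor that acts on fibroblasts, read 561, 670 and 503 and then 105, 212 and 124 (-1.70 ± 0.24, adjusted p = 0.00016). Timp4, an inhibitor of matrix proteases (-1.52, adjusted p = 0.0012), Ltbp2, a TGF-beta binding protein family member (-1.11, adjusted p = 0.0034), Agt, angiotensinogen (-2.04, adjusted p = 0.0061), and Thbs4, a thrombospondin (-1.55, adjusted p = 0.032), fell too. The angiotensin receptor Agtr1a went the other way, from 413, 365 and 418 to 1289, 926 and 1050 (1.41 ± 0.16, adjusted p = 4.8e-05). Postn, periostin of activated fibroblasts, overlapped between the groups (4513, 6688 and 4054, then 4583, 4411 and 2932) and was not called (-0.34 ± 0.24, adjusted p = 0.36). Without heart 3 there were 2 rises. Falls numbered 7 without heart 3 and 4 without heart 2 at 6 weeks on.

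Tubulins, the subunits of microtubules, fell in 4 of 9 measured genes, and all 9 had changes below 0 (median -0.86). Tuba4a read 17835, 14835 and 24304 at 6 weeks on and 6614, 6286 and 6038 at 2 weeks off (-1.55 ± 0.22, adjusted p = 0.00016). Tubb4b went from 3869, 4085 and 2764 to 1185, 1514 and 1300 (-1.38 ± 0.18, adjusted p = 6.3e-05), Tubb2a fell by 1.61 (adjusted p = 5e-05) and Tubg1, the gamma form of the centrosome, by 0.86 (adjusted p = 0.0013). The other kept probe sets of Tubb4b, all dimmer, were not called (-0.02, 0.81, -0.05 and -0.21). The count was 4 in each of the 18 alternative settings run.

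Iron genes gave 1 rise and 1 fall among 8. The transferrin receptor Tfrc read 1546, 1592 and 1555 and then 468, 501 and 356, a fall of 1.73 ± 0.21 on the log2 scale (adjusted p = 3.4e-05), and ferritin Fth1 had a called change of 0.51 (adjusted p = 0.049) that was lost in 5 of the 6 refits without 1 heart, that without heart 3 among them. A dimmer Tfrc probe set was not called (-0.13, adjusted p = 0.88). Metallothioneins and acute phase genes fell in 3 of 5. Mt2, a metal-binding protein induced by stress, read 8721, 9981 and 697 at 6 weeks on and 1101, 1056 and 1125 at 2 weeks off, so heart 3 lay below the repressed hearts and the others far above. Its change was -1.82 (adjusted p = 0.032) with all hearts and -3.04 (adjusted p = 3.1e-10) without heart 3. Mt1 read 11382, 11331 and 3720 and then 3777, 4097 and 4128, with heart 3 just below the repressed hearts, and the acute phase gene Lcn2 read 734, 759 and 178 and then 174, 179 and 184, with heart 3 among them. Without heart 3 the list had 4 falls, and no gene of this list was called when heart 1 or 2 at 6 weeks on, or heart 2 or 3 at 2 weeks off, was left out.

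Of 18 genes of the unfolded protein response 2 fell, Manf (-0.77, adjusted p = 0.0074) and Calr (-0.35, adjusted p = 0.041, lost without heart 3). Of 15 cytosolic heat shock genes Bag3, a co-chaperone of muscle, rose by 0.96 ± 0.16 (adjusted p = 0.0006), while Hsph1 (-1.11, adjusted p = 0.0039) and the brightest probe set of Hspb8 (-0.59, adjusted p = 0.017) fell. A second Hspb8 probe set was called in the opposite direction with no overlap, from 2125, 1940 and 634 to 4660, 2802 and 4260 (1.43, adjusted p = 0.0047, and 0.018 without heart 3). Without heart 3 the heat shock list had 3 falls. Of 19 translation and ribosome genes, Eif4e, the cap-binding protein (0.81, adjusted p = 0.0064), and Eef1a1 (0.41, adjusted p = 0.031) rose and Eif3b (-0.63, adjusted p = 0.017) fell. Eef1a1 lost its call without heart 3, and both it and Eif3b lost theirs in 3 of the 6 refits without 1 heart. Of 14 immediate early genes, which respond to handling, Dusp1 rose by 0.73 (adjusted p = 0.042) and Jund fell by 0.48 (adjusted p = 0.027), and both calls were lost without heart 3, when Egr1 was called higher instead (2.01).

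Of 14 clock genes 3 rose and 2 fell. Per1 read 1238, 1463 and 1233 and then 457, 293 and 457 (-1.61 ± 0.25, adjusted p = 0.00032), and Per2 fell by 0.94 (adjusted p = 0.022, and 0.055 without heart 3). Bhlhe40 (1.03, adjusted p = 0.0025), Cry2 (1.31, adjusted p = 0.0061) and Nr1d1 (0.60, adjusted p = 0.0074) rose. The labels do not give the hour at which hearts were taken. Of 23 proliferation genes Pcna (0.97, adjusted p = 0.001) and Cdk1 (1.24, adjusted p = 0.023) rose. Pcna read 667, 1091 and 580 and then 1513, 1466 and 1581, and Mki67 had a difference of 0.82 (adjusted p = 0.11). Igf2 was the 1 called gene of 8 in the IGF family (0.94, adjusted p = 0.013). Prkar1a, a regulatory subunit of protein kinase A, rose by 1.02 (adjusted p = 0.0007) and Gnai2 fell by 0.43 (adjusted p = 0.039, and 0.21 without heart 3) among 10 adrenergic genes. H2-Eb1 was the 1 called gene among 13 of MHC class I and II (0.97, adjusted p = 0.0055).

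Markers of other cell types were followed as a check on tissue content. Of 10 cardiomyocyte markers Ryr2, whose call was lost without heart 3, and Pln rose and Nkx2-5, a cardiac transcription factor, fell (-0.83, adjusted p = 0.00088), while their summed signal was 153790 to 218800 at 6 weeks on and 173620 to 212530 at 2 weeks off. This was the largest sum of any marker list before induction, at 6 weeks on and at 2 weeks off. The lists differ in size and in the brightness of their probe sets, so the ranking is no check of tissue content. Of 20 macrophage and leukocyte markers Lyz2 (1.15, adjusted p = 0.0092) and Ptprc (0.64, adjusted p = 0.018) rose, and 0 were called without heart 3. Their summed signal was 10985, 11196 and 7482 and then 14448, 14135 and 10642. Among 12 fibroblast markers Pi16 (-1.03, adjusted p = 0.0024) and Gsn (-0.65, adjusted p = 0.016, and 0.061 without heart 3) fell and Tcf21 was called 0.53 higher (adjusted p = 0.044). Among 11 smooth muscle and pericyte markers Cspg4 (-0.60, adjusted p = 0.0089) and Cnn1 (-1.11, adjusted p = 0.034, and 0.14 without heart 3) fell beside the rise of Kcnj8.

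Atrial markers varied from heart to heart, with 0 of 9 called by limma, 0 at an unadjusted p below 0.05 and a median of 1.05. Their summed signal was 18162, 14562 and 7175 at 6 weeks on and 48106, 21638 and 8308 at 2 weeks off, and it ran from 3060 to 69261 before induction. Nppa, which is in this list and so is part of the sum, followed the same order of hearts at 2 weeks off but not at 6 weeks on. Adipocyte markers were summed to 870 to 1223 at 6 weeks on and 1742, 7869 and 1241 at 2 weeks off, with Retn called of 4 (1.35, adjusted p = 0.0099, lost without heart 3). Mbp was the 1 called gene of 4 nerve markers (0.93, adjusted p = 0.016, with 1 further gene called lower without heart 3), Ryr1 the 1 of 3 skeletal muscle markers (-1.46, adjusted p = 0.02, and 0.077 without heart 3), and 0 of 2 erythroid (1 at an unadjusted p below 0.05) and 0 of 6 mesothelial and valve markers (2) were called by limma. The summed signal of the 2 skeletal muscle probe sets on chip 430A was 26671, 18092 and 22826 at 6 weeks on. It was 12553, 14011 and 16635 at 2 weeks off and 1510 to 3560.5 before induction. The part of these cell types in the other results was not tested. No kept marker was at 0, and 6 of 9 skeletal muscle and 4 of 24 macrophage and leukocyte markers were too dim to be kept.

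Beyond the lists, the largest changes were often carried by 1 of several probe sets of a gene, and the values given here are those of the probe set with the largest change, not of the brightest. On chip 430A the largest rises were those of Gja1 (2.67), Anapc5 (2.52), Abcc9 (2.40), Ptp4a2 (2.37), Glg1 (2.31), Ctnnb1 (2.30), Slc2a4 (2.20) and Ttll1 (2.15). Ctnnb1, beta-catenin, read 606, 997 and 275 and then 3046, 2570 and 3212 (2.30 ± 0.28, adjusted p = 4.6e-05), and all 3 of its probe sets rose, the brightest by 0.48 (adjusted p = 0.019). Ptp4a2, a phosphatase, had its brightest probe set called lower (-1.10, adjusted p = 0.0011) beside 2 called higher, and Glg1 had 3 other probe sets with changes from -0.05 to 0.20. Anapc5 read 378, 585 and 13.6 before its rise, and its change was 1.51 without heart 3, which held the lowest value. All 5 of its other probe sets were brighter, with differences of -0.08, -0.42, -0.13 and 0.24 that were not called and 1 of 0.48 that was (adjusted p = 0.02, lost without heart 3).

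The largest falls on chip 430A, after Ddit4, were those of a dimmer probe set of Psmd6 (-3.36), Resf1 (-3.08), Mthfd2 (-2.84), Cdkn1a (-2.74 in its dimmer probe set), Gadd45g (-2.50), Egln3 (-2.32) and Abcf1 (-2.29). Resf1, a factor of retroelement silencing, read 1553, 1456 and 748 and then 46.5, 167 and 102, and its other 2 probe sets were lower as well (-2.39 and -1.28). Egln3, an oxygen-sensing prolyl hydroxylase, went from 1819, 2916 and 1344 to 237, 375 and 456 (-2.32 ± 0.26, adjusted p = 2e-05). The proteasome subunit Psmd6 read 966, 1584 and 1745 and then 88.6, 95.5 and 86.8 in that probe set, while its brighter one was not called (0.01, adjusted p = 0.96). Abcf1 had 2 probe sets called lower, the brightest by -0.61 (lost without heart 3), and 1 called higher by 1.00.

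On chip 430B the largest rises were those of Orai3, a calcium entry channel (2.94 ± 0.55, adjusted p = 0.0045), Pramel12 (2.53), Lrrc2 (2.48) and Osgepl1 (2.38, lost without heart 3). Lrrc2 read 1119, 532 and 247 and then 4179, 2671 and 2472, while its probe set on chip 430A overlapped and was not called (0.60, adjusted p = 0.11). The Pramel12 probe set was dim, at 22.2, 22.9 and 5.93 and then 114, 159 and 186. A brighter Pramel12 probe set rose by 0.57 (adjusted p = 0.031, lost without heart 3), and another was not called (0.72, adjusted p = 0.19). The largest falls were those of Ptprg, a receptor phosphatase (-3.13 ± 0.42, adjusted p = 0.00021), Pih1d1 (-3.00), Map4, a microtubule-associated protein (-2.80), and Fam107a (-2.72). Fam107a read 1028, 1839 and 447 and then 162, 121 and 121. Ptprg read 119, 260 and 152 and then 6.25, 10.1 and 9.02, while its 3 other probe sets had differences from 0.03 to 0.78, none called. The 3 other probe sets of Pih1d1 (-0.29, 0.33 and -0.04) were not called either. Those of Map4 had differences of -0.04 and 0.13 and a call at -0.53 that was lost without heart 3. Over all genes with several kept probe sets, 435 of 6583 had more than 1 called, of which 361 had all calls in 1 direction and 74 had calls in both.

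The repressed hearts were also set against the hearts before induction, a comparison that shares the repressed hearts with the one above. It called 551 probe sets of the first chip (3.54%) and 300 of the second (1.71%), while 3337 (21.4%) and 1024 (5.85%) were called between 6 weeks on and before induction. Mice were 20 weeks old at 2 weeks off and 12 weeks old before induction, so that age and treatment cannot be told apart here. Hearts 3 and 4 before induction had Xist signals of 2518 and 2170, against 4.4 to 92.8 in the 16 other hearts, although they are labelled male. Values without those 2 hearts are therefore given as well.

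**Figure D5:**
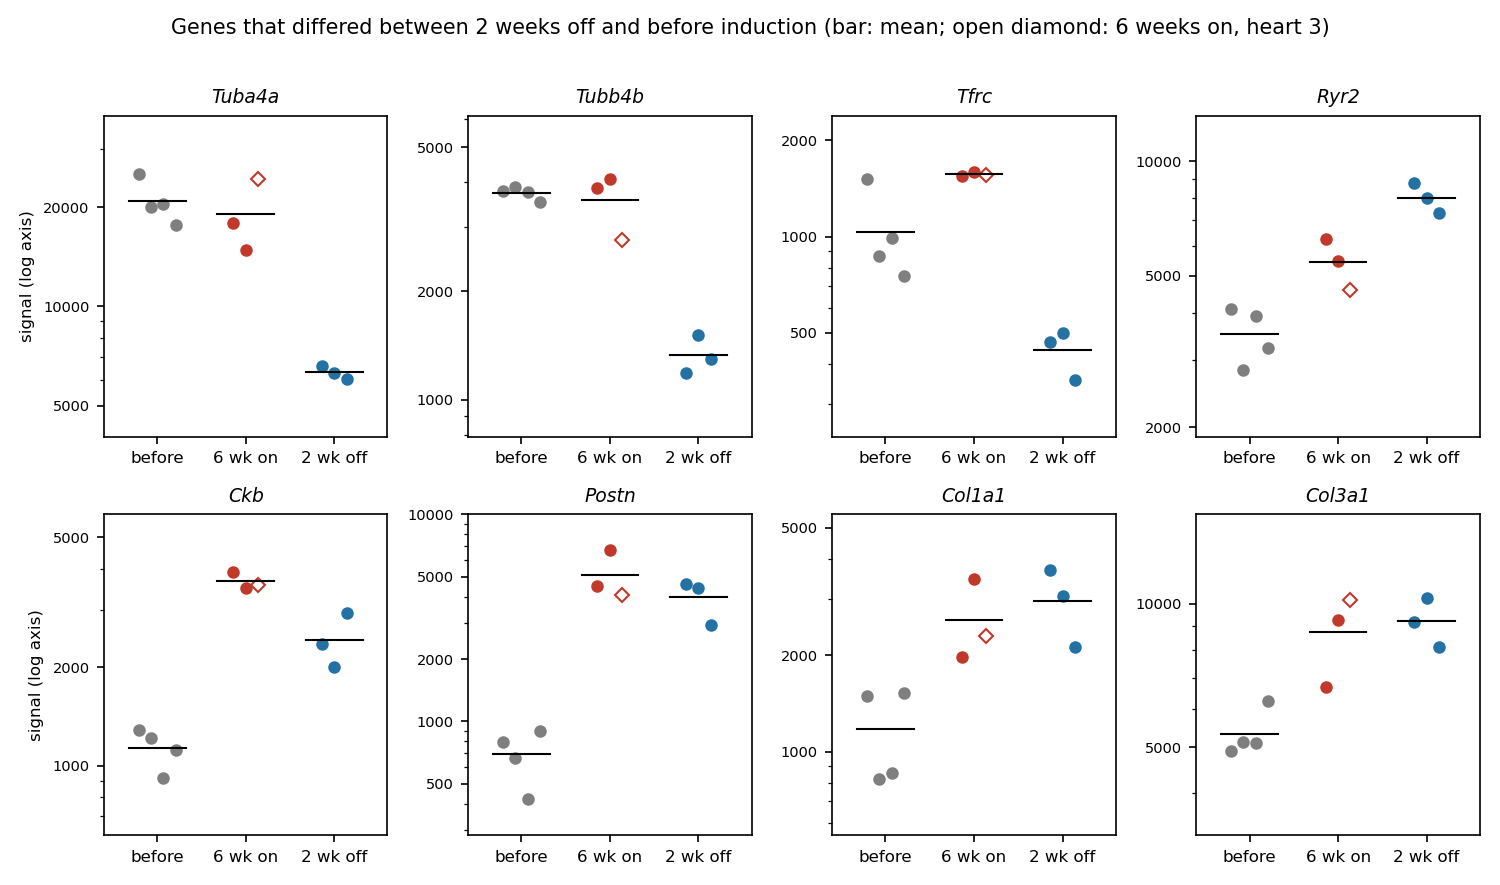
Signal per heart on a log axis before induction, at 6 weeks on and at 2 weeks off is plotted for 8 genes that differed between 2 weeks off and before induction, with a bar at the mean. Tuba4a, Tubb4b and Tfrc, each by its brightest probe set, lie below both other groups after repression, and Ryr2 lies above both. Postn stays within the range of the hearts at 6 weeks on except in the lowest heart after repression, which lies below that range.

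Of the 146 named probe sets 21 differed from the level before induction at 2 weeks off, 8 higher and 13 lower. Postn was 2.45 above it (adjusted p = 6.4e-06), Col1a1 1.31 (adjusted p = 0.0072), Col3a1 0.78 (adjusted p = 0.0086) and Ckb 1.06 (adjusted p = 0.0016). Ryr2 was higher still than at 6 weeks on, 1.19 above the level before induction (adjusted p = 0.00014). Ryr1, the skeletal release channel, was 2.34 above (adjusted p = 0.0029) at 531, 430 and 974 against 87.4 ± 51.7 (SD, n = 4). These calls held without hearts 3 and 4 before induction.

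Lower than before induction were Tuba4a (-1.70, adjusted p = 0.0002), Tubb4b (-1.46, adjusted p = 0.00011), Tfrc (-1.10, adjusted p = 0.0036), Gsn (-1.05, adjusted p = 0.0021), the dimmer Psmd6 probe set (-2.62, adjusted p = 1.3e-06), Ptprg (-3.53, adjusted p = 0.0003) and Abcf1 (-1.73, adjusted p = 0.0021), and these calls too held without hearts 3 and 4. Psmd6, Ptprg, Abcf1 and Pih1d1 are given by the probe set that had the largest change in the comparison above, where their other probe sets are described. Tubb4b and Tfrc are given by their brightest probe set, and their dimmer ones were not called in the comparison above. Tubg1 (-0.70), Per1 (-1.04), Timp4 (-0.97), Cat (-0.64), Resf1 (-1.11) and Pih1d1 (-2.06) were called with all 4 hearts and not without hearts 3 and 4. The same was so of Sqstm1 (0.66) and Cdk1 (1.24) on the higher side. Most named genes that had changed during repression, among them Irs1 (-0.06), Abcc9 (-0.37), Vegfa (0.28), Aars (0.30), Pdk4 (0.16) and Myom2 (-0.19), did not differ from the level before induction by the same test, which does not show that they had returned to it.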

How the data were processed

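RNA of each heart was hybridised to the Affymetrix chips 430A and 430B. The values are the intensity signals that the authors deposited, made with MAS5 per the submitters' processing notes, which scaled the arrays of a chip to a common mean. Control probe sets were left out. From these, log2(signal + offset) entered linear models (limma 3.58.1, R 4.3.3, eBayes with trend) over all 18 arrays of a chip with 1 mean per group. The offset was 10% and the filter on the mean signal 20% of each chip's trimmed mean (2% trimmed). Each fold change understates dim probe sets. P-values were adjusted by Benjamini-Hochberg within a chip, with a threshold of 0.05. A gene took its brightest probe set with 1 symbol, chip 430A first. The 2 chips were fitted separately. The number of arrays limits the precision. The method was tested on simulated data with independent normal noise. On chip 430A 64% of rises of 1, 54% of falls of 1, 94% of rises of 2 and 12% of rises of 0.5 (log2) were recovered. On chip 430B the shares were 36%, 34%, 90% and 6%. The simulation had fewer changed probe sets than were called here and no heart that stood apart in RNA quality.

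The members and lists were chosen with earlier results of these data known. Named were the 8 largest rises and falls on chip 430A and 4 on chip 430B whose hearts did not overlap, leaving out clone names, the called members with the smallest adjusted p, at most 4 per list, and a set of genes whatever their values. Other genes named were chosen after their values were seen, as was the motif TGATGNAA. Hearts with the same number did not deviate together (correlations from -0.12 to 0.06), so no pairing was used. Alternatives were the offset, filter, scaling, trend, array weights, the Actb ratio as a covariate, the replicate block, fewer arrays and leaving out each heart.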

Additional observations from a re-analysis of the deposited data

Results flagged for a closer look

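In 9 of 146 named probe sets, 1 of the 4 hearts before induction lay far from the 3 others, a pattern that chance gives in about 1 in 20 groups. The outlying signals were 3430 for Ttll1, 652 for Akt1, 3356 for Psma6, 724 for Slc27a1, 1068 for Atf5, 994 for Pi16, 311 for Retn, 26347 for Nppa and 6247 for Col3a1. These hearts enter the comparison of 2 weeks off with 6 weeks on only through the spread that the groups share. Groups of 3 hearts were not examined in this way.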

How the results depend on the processing

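Counts of called probe sets on chips 430A and 430B were 843 and 90 with only the 6 arrays, 1260 and 322 with the Actb ratio as a covariate, and 407 on chip 430B without the eBayes trend. Leaving out each heart gave 1809 to 2905 and 412 to 551, the lowest without heart 3 at 6 weeks on. The cause of these lower counts was not tested. Of 131 called named probe sets 89 kept their call in all 6 refits without 1 heart. Of 130 (Akt1 apart) 61 lost it with only the 6 arrays, Trim63, Gja1, Atf5 and Pecam1 among them, and 42 with the Actb covariate, among them Orai3, Cry2, Dld, Sqstm1, Pecam1 and Myh7. With the replicate block the counts were 2884 and 624, and Fth1, Pln and Shmt2 lost their calls; the numbers do not pair the hearts.

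Signs turned in 5 named probe sets that were never called. Nppa was -0.11 with array weights, -0.38 with the Actb covariate and -0.20 to 0.63 without 1 heart. Myh6 was 0.031 with quantile normalization, 0.13 with array weights, 0.29 with the covariate and -0.33 to 0.12 without 1 heart. Atp2a2 was 0.038 with quantile normalization or array weights, 0.12 with the covariate and -0.17 to 0.029 without 1 heart. Col3a1 was -0.057 with median scaling and -0.086 to 0.22 without 1 heart. The brighter Psmd6 probe set was -0.14 with median scaling, -0.067 with array weights, -0.10 with the covariate and -0.095 to 0.066 without 1 heart. Signal over background limits dim probe sets.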
